A study of Mus musculus with 15 samples.

Results

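Wnt signalling was followed in ear RNA through 45 genes out of the 21110 listed in each file. They were chosen by symbol: every gene named Wnt, Fzd, Sfrp or Dkk with a digit after it, together with Lrp5, Lrp6, Axin2, Wif1, Frzb, Porcn, Tcf7 and Ctnnb1. By role they were 19 Wnt ligands, the ligand acyltransferase Porcn, 10 Frizzled receptors, 2 co-receptors, 6 secreted inhibitors that bind the ligands (Sfrp1, Sfrp2, Sfrp4, Sfrp5, Frzb and Wif1), 4 Dkk genes, the intracellular genes Ctnnb1 and Tcf7, and the feedback target Axin2.

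Wnt proteins are secreted ligands that carry a lipid added by Porcn. They bind a Frizzled receptor, and in the canonical pathway also Lrp5 or Lrp6, which stops the breakdown of beta-catenin (Ctnnb1) so that it can act with TCF/LEF factors on target genes. In skin this pathway is known for starting hair follicles and driving hair growth, and secreted inhibitors are made in the follicle, the dermis and cartilage.

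The RNA came from ears of 15 C57BL/6 mice, 1 library per mouse. There were 4 wild type (WT) and 4 Socs3 cKO mice aged 2 weeks, and 3 WT and 4 Socs3 cKO mice aged 10 weeks. The study's methods list more WT mice at each age than the series holds. In the cKO mice Socs3, a feedback inhibitor of JAK-STAT signalling, is deleted through keratin 5, a gene of basal keratinocytes, so other cells of the ear keep it. The labels do not say which alleles the WT mice carried. They name keratinocytes as the source, but the RNA was extracted from whole ear samples, and markers of other cells were abundant: 7 epidermal markers summed to 7589 to 15583 FPKM and 8 fibroblast markers to 3991 to 15046 FPKM over all mice.

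FPKM is the number of read fragments scaled to the length of the transcript and to the mapped reads of the library, so it allows levels of different genes to be set side by side. In tissue RNA of this kind, fewer cells of a type and less RNA per cell cannot be told apart. Differences were tested within each age with limma on log2(FPKM + 0.1), and genes were tested where at least 3 mice of the comparison had an FPKM of at least 1. A gene was called where its adjusted p was below 0.01 and its log2(FC) at least 1 in either direction, and a positive log2(FC) means higher in cKO.

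The targeted gene was at 9.71, 10.2, 10.3 and 10.3 FPKM in the WT mice and at 1.25, 9.32, 12.6 and 3.51 FPKM in the cKO mice at 2 weeks. At 10 weeks Socs3 was at 2.76, 4.81 and 2.02 FPKM in the WT mice and at 36.5, 29.8, 47.7 and 32.4 FPKM in the cKO mice. The level of Socs3 in whole ear thus did not mark the deletion at either age: the groups overlapped at 2 weeks, and cKO was higher at 10 weeks. WT and cKO stand below for mice and libraries labelled so. The titles number the libraries in ranges that do not overlap between the 4 groups, and library batch and condition cannot be told apart.

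Library cKO replicate 1 at 2 weeks stood apart. Its GC-rich genes were low: the median deviation of the genes in the top quartile of GC content minus that in the bottom quartile was -2.15 on the log2 scale, against -0.28 to -0.18 in the other 3 cKO mice and 0.64 to 0.72 in WT mice of that age. The Wnt genes were GC-rich, with a median transcript GC content of 54.6% against 50.6% for expressed genes, and 26 of them reached 1 FPKM in that library against 34 to 36 in the other cKO mice at 2 weeks. The 2-week differences of the genes given mouse by mouse are therefore also shown without this library, and with the trend of each sample along transcript length and GC content removed. The 10-week WT libraries, on which all 10-week and WT age results rest, differed in transcript length. The same measure for length was -0.89, -0.22 and -0.95 in them, against -0.36 to 0.39 in cKO mice of that age. In cKO replicate 1 at 2 weeks it was -0.87. These WT libraries also listed 1414 to 3176 genes at 0, against 4044 to 4423 in all others. Mapped reads, estimated from the smallest common values above 0, were 11700000 to 17000000 per library, and their exact number is unknown.

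At 2 weeks the ears of cKO mice had more RNA of the inhibitors Wif1 and Frzb and less of Wnt11, the receptors Fzd1, Fzd5 and Fzd7, the inhibitor Sfrp2 and the transcription factor Tcf7. Of the 45 genes 37 passed the filter, 2 were called higher and 6 lower. Over all 13524 genes tested, 7.24% were called higher and 7.19% lower. The log2(FC) was negative for 32 of the 37 genes, with a median of -0.91, against a median of -0.21 over all genes tested. The WT and cKO mice did not overlap for 22 of the 37 genes, 2 of them higher and 20 lower in cKO, where over all genes 22.9% lay wholly higher and 33.2% wholly lower.

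The count at 2 weeks depended on library cKO replicate 1 and on GC content. Without that library 5 genes were called higher (Wif1, Frzb, Fzd4, Fzd9 and Lrp6) and 8 lower (the former 6, Wnt10b and Lrp5), against 6.89% and 13.0% of all genes. With the length and GC trend removed, 5 were called higher (Wif1, Frzb, Fzd4, Fzd9 and Wnt7b) and 5 lower (Wnt11, Wnt10b, Fzd5, Tcf7 and Sfrp2), against 7.07% and 5.90% of all genes, and the median log2(FC) of the 37 genes was -0.07. Wif1, Frzb, Wnt11, Fzd5, Tcf7 and Sfrp2 were called in all 3 settings in the same direction, while Fzd1 and Fzd7 were not called once the trend was removed.

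**Figure D1:**
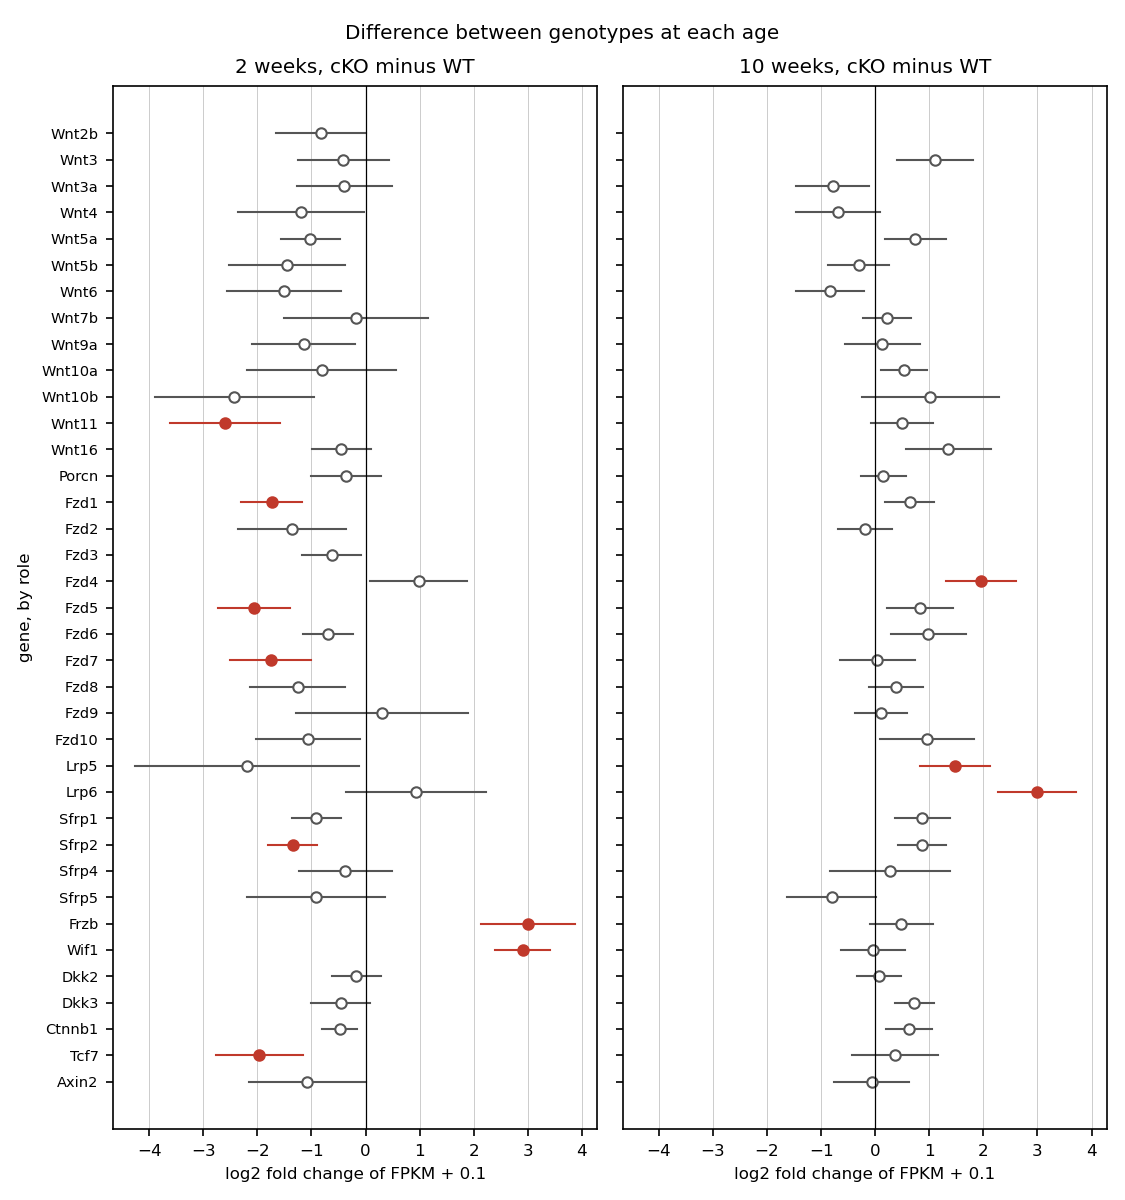
Log2 fold change of FPKM + 0.1 between cKO and WT mice at 2 weeks (left) and 10 weeks (right) for the Wnt genes that passed the filter, ordered by role. Bars are 95% confidence intervals from limma and filled red points are called genes. At 2 weeks most points lie left of 0, with Frzb (3.01) and Wif1 (2.90) far to the right. At 10 weeks Lrp6 (2.99) lies farthest to the right.

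At 10 weeks the ears of cKO mice had more RNA of both co-receptors, Lrp5 and Lrp6, and of the receptor Fzd4. No inhibitor and no ligand was called. Of the 35 genes that passed the filter 3 were called higher and 0 lower, where 12.5% and 2.43% of the 13105 genes tested were called. The median log2(FC) of the 35 genes was 0.48, and that of all genes 0.31. No overlap between the groups was seen for 14 genes that were higher and 2 that were lower in cKO, where 31.2% and 11.1% of all genes showed none. Lrp5, Lrp6 and Fzd4 were also called with the length and GC trend removed, where 5.93% of all genes were called higher and 4.19% lower. The median over all genes shifted with the scaling, from 0.31 as deposited to -0.01 with median-of-ratios scaling, so differences of that size at 10 weeks have no fixed sign.

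The genotype difference was then compared between the ages. In the interaction, defined as the log2(FC) at 10 weeks minus that at 2 weeks, 13 of 37 genes were called higher and 2 lower, against 18.0% and 6.55% of 13937 genes. Those higher were Wnt5a, Wnt10b, Wnt11, Wnt16, Fzd1, Fzd5, Fzd6, Fzd7, Sfrp1, Sfrp2, Dkk3, Ctnnb1 and Tcf7, and those lower were Wif1 and Frzb. With the length and GC trend removed, 4 were called higher (Wnt11, Fzd5, Sfrp2 and Tcf7) and 5 lower (Wif1, Frzb, Wnt3a, Wnt7b and Fzd9), against 8.39% and 9.93% of all genes. Without cKO replicate 1 at 2 weeks the counts were 13 and 2, against 22.5% and 7.03% of all genes, with Lrp5 and Fzd8 called and Dkk3 and Ctnnb1 not.

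Changes with age differed in extent between the genotypes. In WT mice 2 of the 37 genes were called higher at 10 than at 2 weeks (Wif1 and Frzb) and 13 lower, against 6.18% and 19.4% of all genes. In cKO mice 1 was called higher (Sfrp2) and 0 lower, against 2.01% and 1.53% of all genes. The 2-week WT mice enter both the WT age comparison and the 2-week genotype comparison, and the counts are therefore not independent. The 13 were Wnt5a, Wnt10b, Wnt11, Wnt16, Fzd1, Fzd2, Fzd5, Fzd6, Fzd7, Fzd10, Sfrp1, Ctnnb1 and Tcf7, with log2 changes from -3.21 (Wnt10b) to -1.18 (Sfrp1). The call was lost for Wnt10b without WT replicate 3 at 10 weeks (-2.62, adjusted p = 0.0160) and for Tcf7 without any WT mouse but replicate 2 at 10 weeks (adjusted p 0.0108 to 0.0319). With the length and GC trend removed, 7 genes were called higher and 3 lower with age in WT mice, against 8.56% and 8.63% of all genes. The age fits estimated the spread over all 4 groups, so the cKO mice bear on the WT counts. Without cKO replicate 1 at 2 weeks, 3 genes were called higher and 20 lower with age in WT mice. In that fit 32.49% of all genes were called in either direction.

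**Figure D2:**
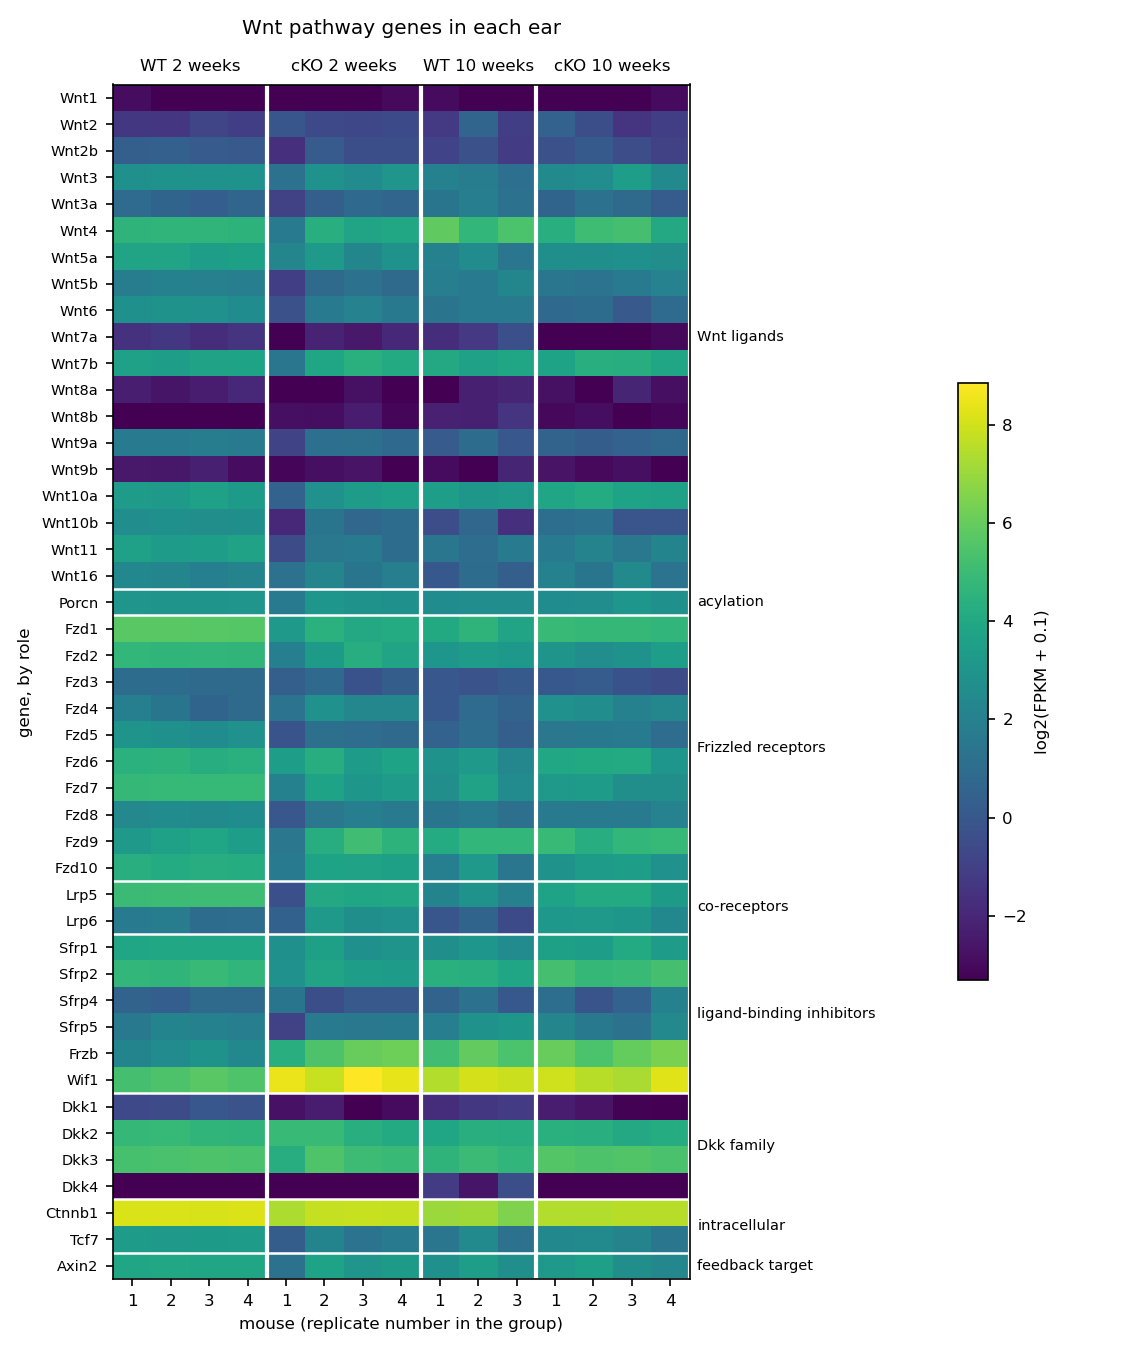
Level of all 45 Wnt genes as log2(FPKM + 0.1), one column per mouse and one row per gene, with genes in order of role. The column of cKO mouse 1 at 2 weeks is darker than its neighbours for most ligands and receptors. Wif1 is less bright in the 2-week WT mice than in the other groups, and was there at 38.4 to 52.8 FPKM.

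Promoter sequences are shown for genes called between the genotypes at either age, since these carry the differences described below. They come from the RefSeq table for build GRCm38.p6, in which 30 of the 45 genes had an entry, and each was placed in mm9 by its only exact match there. Each holds up to 250 bases before the transcription start, cut where the mm9 annotation starts the gene. Capitals mark the TCF/LEF core CTTTGNT, the STAT element TTCNNNGAA or the AP-1 element TGANTCA, searched on both strands and not overlapping each other. Lrp5 and Lrp6 had no entry, and Frzb and Tcf7 are not shown because most of their window lies inside the annotated gene. Wif1 lies before its start at chr10:120470810-120471015 on the plus strand. Wnt11 covers chr7:105983372-105983621, Fzd7 chr1:59538741-59538990, Sfrp2 chr3:83569993-83570242 and Fzd4 chr7:96552626-96552875, all on the plus strand. Fzd5 covers chr1:64784325-64784574 and Fzd1 chr5:4758217-4758466, both on the minus strand.
Wif1: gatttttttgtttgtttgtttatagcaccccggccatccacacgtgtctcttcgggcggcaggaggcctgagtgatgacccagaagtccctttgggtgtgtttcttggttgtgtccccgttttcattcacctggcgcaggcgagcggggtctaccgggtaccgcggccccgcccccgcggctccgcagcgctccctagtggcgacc
Wnt11: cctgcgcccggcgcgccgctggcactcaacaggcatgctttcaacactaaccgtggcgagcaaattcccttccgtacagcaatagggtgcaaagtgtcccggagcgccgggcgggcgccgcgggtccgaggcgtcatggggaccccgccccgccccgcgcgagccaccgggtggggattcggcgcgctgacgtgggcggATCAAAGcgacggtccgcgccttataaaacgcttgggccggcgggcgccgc
Fzd7: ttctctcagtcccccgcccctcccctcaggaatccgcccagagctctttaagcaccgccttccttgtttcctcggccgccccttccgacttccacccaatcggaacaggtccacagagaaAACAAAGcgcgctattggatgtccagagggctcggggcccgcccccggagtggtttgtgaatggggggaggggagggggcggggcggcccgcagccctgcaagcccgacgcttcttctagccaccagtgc
Fzd5: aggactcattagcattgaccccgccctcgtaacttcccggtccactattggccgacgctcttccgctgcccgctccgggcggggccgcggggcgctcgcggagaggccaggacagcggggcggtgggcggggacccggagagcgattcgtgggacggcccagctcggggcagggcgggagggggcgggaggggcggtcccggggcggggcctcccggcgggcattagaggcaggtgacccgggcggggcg
Fzd1: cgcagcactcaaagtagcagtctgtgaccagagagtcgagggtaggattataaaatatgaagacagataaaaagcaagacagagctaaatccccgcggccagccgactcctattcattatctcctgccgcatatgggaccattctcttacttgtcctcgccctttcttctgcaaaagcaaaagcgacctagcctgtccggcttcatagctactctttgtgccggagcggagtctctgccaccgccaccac
Sfrp2: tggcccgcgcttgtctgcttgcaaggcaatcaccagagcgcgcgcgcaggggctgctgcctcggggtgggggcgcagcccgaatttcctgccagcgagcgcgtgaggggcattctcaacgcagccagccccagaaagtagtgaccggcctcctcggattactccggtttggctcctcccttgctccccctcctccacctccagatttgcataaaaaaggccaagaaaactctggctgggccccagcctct
Fzd4: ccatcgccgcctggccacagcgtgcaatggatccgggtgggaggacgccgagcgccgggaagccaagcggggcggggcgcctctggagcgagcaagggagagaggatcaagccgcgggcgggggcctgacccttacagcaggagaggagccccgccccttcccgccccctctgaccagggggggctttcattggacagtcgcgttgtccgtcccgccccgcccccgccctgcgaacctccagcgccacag
In these windows Wnt11 and Fzd7, both lower at 2 weeks, each hold 1 TCF/LEF core on the reverse strand, and the other 5 hold none of the 3 motifs. The shares that follow were counted over the full 250 bases of each entry, before any cut. A TCF/LEF core was present in 17.1% of the 35 entries of the Wnt genes and in 16.0% of all 32851 promoters of the table. A STAT element was present in 5.71% and 7.02%, and an AP-1 element in 2.86% and 6.75%. The uncut entries of the Wnt genes had a median GC content of 69.2%, against 52.4% for all promoters.

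Of the 19 ligands, 13 passed the filter at 2 weeks and 12 at 10 weeks. All 13 had a negative log2(FC) at 2 weeks, from -2.61 to -0.18, and 1 was called, where 7.19% of all genes were called lower. With the trend removed the values of 5 of them were positive (Wnt2b, Wnt3, Wnt3a, Wnt7b and Wnt10a), with Wnt7b at 1.31. At 10 weeks 8 were positive and 4 negative, none of them called. The ligands summed to 105 to 108 FPKM in WT mice at 2 weeks and to 74.8 to 77.8 FPKM in the cKO mice of that age other than replicate 1, which was at 20 FPKM. At 10 weeks the sums were 76.8 to 109 FPKM in WT mice and 72.0 to 106 FPKM in cKO mice, and overlapped.

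Wnt11, a ligand known mostly for beta-catenin-independent signalling, lies at chr7:105983622-106003705 of mm9. It was at 12.5, 10.4, 11.3 and 12.9 FPKM in WT mice and at 0.623, 2.88, 3.27 and 1.87 FPKM in cKO mice at 2 weeks. At 10 weeks it was at 2.63, 1.94 and 3.04 FPKM in WT mice and at 3.07, 4.19, 2.80 and 4.47 FPKM in cKO mice. Only the 2-week WT mice were above 5 FPKM, and the groups did not overlap at 2 weeks. The log2(FC) at 2 weeks was -2.61 (SE 0.44, adjusted p = 0.00335), or 6.08-fold lower. Without cKO replicate 1 it was -2.13 (adjusted p = 4.79e-05) and with the trend removed -1.45 (adjusted p = 0.000371). Leaving out any WT mouse or cKO replicate 4 ended the call, at adjusted p values of 0.0114 to 0.0139 with a log2(FC) of -2.66 to -2.56. The interaction was 3.10 (SE 0.55, adjusted p = 0.000956).

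Wnt10b, a canonical ligand of hair follicle growth, was likewise highest in the 2-week WT mice. It was at 6.13, 6.90, 6.41 and 6.68 FPKM in WT mice at 2 weeks, and at 0.166, 2.54, 1.53 and 1.91 FPKM in cKO mice. The groups did not overlap, and the difference at 2 weeks was not called (log2(FC) -2.43, SE 0.64, adjusted p = 0.0176), while without cKO replicate 1 it was (-1.69, adjusted p = 9.02e-05), as it was with the trend removed (-1.39, adjusted p = 0.00598). At 10 weeks Wnt10b was at 0.630, 1.5 and 0.212 FPKM in WT mice and at 2.04, 2.26, 0.835 and 0.835 FPKM in cKO mice, which overlapped. The interaction of 3.45 (SE 0.94, adjusted p = 0.00948) lay just inside the threshold and was lost when any of 10 mice was left out, namely any WT mouse at 2 weeks, WT replicate 1 or 3 at 10 weeks, cKO replicate 3 at 2 weeks or cKO replicates 1 to 3 at 10 weeks (adjusted p 0.0124 to 0.0336).

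Wnt5a, the best known ligand of beta-catenin-independent signalling, was at 13.6, 13.7, 11.3 and 12.0 FPKM in WT mice and at 4.48, 9.10, 4.78 and 7.38 FPKM in cKO mice at 2 weeks. In mice aged 10 weeks it was at 3.97, 5.69 and 2.64 FPKM in WT mice and at 6.66, 6.55, 6.79 and 6.45 FPKM in cKO mice. The cKO mice were all lower than WT at 2 weeks and all higher at 10 weeks. Neither difference was called (log2(FC) -1.02, adjusted p = 0.0116, and 0.74, adjusted p = 0.0428), but the interaction was (1.76, SE 0.36, adjusted p = 0.00203). With the trend removed the 10-week value was -0.12 and the interaction 0.63 (adjusted p = 0.0188). Its 2-week value was -0.87 without cKO replicate 1 and -0.73 with the trend removed, neither called. The 2-week call was gained without cKO replicate 2 (-1.21) and the 10-week call without WT replicate 2 (1.01).

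Wnt16, a ligand best known from bone, had values of 5.00, 4.54, 3.73 and 4.21 FPKM in WT mice and 2.34, 4.63, 2.57 and 3.57 FPKM in cKO mice at 2 weeks. At 10 weeks it had 0.913, 1.89 and 1.18 FPKM in WT mice and 4.02, 2.56, 5.36 and 2.39 FPKM in cKO mice. The 2-week groups overlapped, with a log2(FC) of -0.45, -0.31 without cKO replicate 1 and -0.58 with the trend removed, none called. They did not overlap at 10 weeks, where it was 1.35 (SE 0.35, adjusted p = 0.0151) and passed the threshold only without WT replicate 2 (1.62). The interaction was 1.80 (SE 0.43, adjusted p = 0.00508), and 8 mice each ended that call when left out: WT replicates 1, 2 and 4 and cKO replicate 3 at 2 weeks, and WT replicates 1 and 3 and cKO replicates 1 and 3 at 10 weeks (adjusted p 0.0104 to 0.0179).

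The ligand with the highest mean level was Wnt4. Its levels were 24, 25.1, 25.3 and 23.3 FPKM in WT mice and 3.07, 19.7, 13.6 and 15.3 FPKM in cKO mice at 2 weeks, and 59.0, 26.7 and 42.4 FPKM in WT mice and 19.8, 33.5, 38.0 and 16.0 FPKM in cKO mice at 10 weeks. It held 22.9% ± 0.814 (SD, n = 4) of the summed ligand FPKM in WT mice at 2 weeks and 45.6% ± 9.85 (SD, n = 3) at 10 weeks. The groups did not overlap at 2 weeks, where the difference was not called (log2(FC) -1.19, SE 0.51, adjusted p = 0.0813), and overlapped at 10 weeks (-0.68, adjusted p = 0.144). Without cKO replicate 1 the value at 2 weeks was -0.61, and with the trend removed -0.01.

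Among the other ligands, Wnt7b, Wnt10a and Wnt3 were the higher ones, and at 2 weeks Wnt7b was at 11.1 to 13.2 FPKM in WT mice and at 2.63, 14.4, 21.5 and 17.3 FPKM in cKO mice. The lowest of these was again cKO replicate 1, and the other 3 were above every WT mouse. Wnt5b (0.371 FPKM) and Wnt9a (0.474 FPKM) were also lowest in that library. Wnt3 at 10 weeks was at 2.07 to 3.98 FPKM in WT and at 5.36 to 11 FPKM in cKO mice without overlap (log2(FC) 1.11, adjusted p = 0.0214). Wnt10a was at 8.69 to 11.3 FPKM in WT and at 12.4 to 17.9 FPKM in cKO mice, also without overlap (0.54, adjusted p = 0.0480). Wnt6 and Wnt3a were lower in all cKO mice than in all WT mice at 10 weeks (-0.84, adjusted p = 0.0416, and -0.78, adjusted p = 0.0654), and neither was called.

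Ligands below the filter were Wnt1, Wnt2, Wnt7a, Wnt8a, Wnt8b and Wnt9b at both ages, and Wnt2b at 10 weeks. Wnt7a, a ligand of epithelia, was at 0.197 to 0.289 FPKM in WT and at 0 to 0.165 FPKM in cKO mice at 2 weeks, and at 0.204 to 0.682 FPKM in WT mice and at 0, 0, 0 and 0.0189 FPKM in cKO mice at 10 weeks. The groups did not overlap at either age, at levels too low to test, and the 10-week WT libraries listed fewer genes at 0 than all others. Wnt8b was listed at 0 in all 4 WT mice at 2 weeks and at 0.115, 0.112 and 0.252 FPKM in WT mice at 10 weeks, the libraries that listed 1414 to 3176 genes at 0 against 4044 to 4423 in all others. A single read of Wnt8b was worth about 0.0174 to 0.0252 FPKM. Several ligand genes are neighbours in the genome: Wnt6 and Wnt10a lie 6196 bases apart on chromosome 1, and Wnt10b and Wnt1 lie 11706 bases apart on chromosome 15, yet Wnt1 did not exceed 0.0318 FPKM in any mouse.

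Porcn, which adds the lipid to every Wnt protein, showed little difference. At 2 weeks it was at 8.15, 7.68, 7.77 and 7.96 FPKM in WT mice and at 3.24, 8.25, 7.64 and 6.92 FPKM in cKO mice, and at 10 weeks at 5.96, 6.18 and 6.18 FPKM in WT mice and at 6.02, 6.22, 8.44 and 6.78 FPKM in cKO mice. The groups overlapped at both ages. The log2(FC) was -0.36 (95% confidence interval -1.0 to 0.29) at 2 weeks and 0.15 (-0.27 to 0.57) at 10 weeks, and its sign at both ages changed with the scaling. The 2-week value was -0.06 without cKO replicate 1 and 0.40 with the trend removed.

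The Frizzled receptors summed to 171 to 177 FPKM in WT mice at 2 weeks, and to 101 to 113 FPKM in 3 cKO mice and 38.9 FPKM in cKO replicate 1. At 10 weeks the sum was 66.2, 101 and 68.7 FPKM in WT mice and 99.0 to 113 FPKM in cKO mice. All 10 receptors passed the filter at 2 weeks, and 9 at 10 weeks, Fzd3 being too low. At 2 weeks 3 were called lower, where 7.19% of all genes were. The log2(FC) was negative for 8 of 10, against 7879 of 13524 genes, and the median was -1.16, against -0.21. With the trend removed only Fzd5 was called lower, and Fzd4 and Fzd9 were called higher, where 5.90% and 7.07% of all genes were. At 10 weeks 1 was called higher, where 12.5% of all genes were. The log2(FC) was positive for 8 of 9, against 8752 of 13105 genes, with a median of 0.64, against 0.31.

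Fzd1, the receptor with the highest mean over all 15 mice though below Fzd9 in the means of the WT mice at 10 weeks and the cKO mice at 2 weeks, lies at chr5:4753842-4758216. It was at 53.1, 53.0, 52.2 and 50.2 FPKM in WT mice and at 9.24, 22.1, 16.1 and 17.7 FPKM in cKO mice at 2 weeks. In the older mice it was at 16.7, 24.3 and 13.7 FPKM in WT mice and at 29.6, 27.8, 27.3 and 25.8 FPKM in cKO mice. The groups did not overlap at either age, with cKO lower at 2 weeks and higher at 10 weeks. At 2 weeks the log2(FC) was -1.74 (SE 0.25, adjusted p = 0.00143), -1.49 without cKO replicate 1 (adjusted p = 2.42e-05) and -0.52 with the trend removed (adjusted p = 0.0248). The 10-week value was 0.64 (adjusted p = 0.0342), and the interaction was 2.38 (SE 0.34, adjusted p = 0.000206) as deposited and 0.72 with the trend removed (adjusted p = 0.0192).

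Fzd5, at chr1:64777134-64784324, was at 7.73, 6.87, 5.90 and 7.01 FPKM in WT mice and at 0.803, 2.13, 1.95 and 1.73 FPKM in cKO mice at 2 weeks. At 10 weeks the levels were 1.32, 1.94 and 1.19 FPKM in WT mice and 2.75, 2.94, 3.16 and 1.97 FPKM in cKO mice. Every cKO mouse lay below every WT mouse at 2 weeks and above every WT mouse at 10 weeks. The 2-week log2(FC) of -2.07 (SE 0.29, adjusted p = 0.00142) was the largest fall among the receptors, 4.19-fold, and was called without cKO replicate 1 (-1.77) and with the trend removed (-1.16). The 10-week value was 0.83 (adjusted p = 0.0362), and 0.06 with the trend removed. The interaction was 2.90 (SE 0.40, adjusted p = 0.000183).

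Fzd7, which serves canonical signalling in stem and progenitor cells, had very even WT values at 2 weeks of 27.4, 28.1, 28.0 and 28.2 FPKM, against 3.96, 13.2, 8.48 and 10.1 FPKM in cKO mice. Among 10-week mice it was at 6.31, 12.9 and 5.77 FPKM in WT mice and at 9.54, 10.4, 6.46 and 6.47 FPKM in cKO mice. The groups were apart at 2 weeks and mixed at 10 weeks. Between the genotypes at 2 weeks the log2(FC) was -1.76 (SE 0.33, adjusted p = 0.00483), -1.41 without cKO replicate 1 (adjusted p = 8.24e-05) and -0.68 with the trend removed, under the fold threshold. The call was lost without any WT mouse or cKO replicate 3 or 4 (adjusted p 0.0114 to 0.0177). The interaction of 1.80 (adjusted p = 0.00887) fell to 0.18 with the trend removed, and that call was lost when any 1 of 11 mice was left out (adjusted p 0.0104 to 0.0299), that is, any mouse but cKO replicates 1 and 2 at 2 weeks, WT replicate 2 at 10 weeks and cKO replicate 4 at 10 weeks.

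Fzd6, a receptor known for the orientation of hair follicles, was at 22.2, 23.0, 19.1 and 21.2 FPKM in WT mice and at 10.9, 19.2, 10.7 and 13.2 FPKM in cKO mice at 2 weeks. The 10-week levels were 7.52, 9.38 and 4.83 FPKM in WT mice and 15.3, 17.0, 17.2 and 8.31 FPKM in cKO mice. The groups overlapped at both ages, by 1 mouse each time. Neither difference was called (-0.70, adjusted p = 0.0233, and 0.98, adjusted p = 0.0313), though the second was without cKO replicate 4 (1.23, adjusted p = 0.00687). The 2-week value was -0.61 without cKO replicate 1 and -0.57 with the trend removed. The interaction was 1.68 (SE 0.39, adjusted p = 0.00404), which was not called without WT replicate 3 at 10 weeks (1.42, adjusted p = 0.0140).

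Fzd4, a receptor of blood vessel development that also responds to the ligand Norrin, was the 1 receptor called higher at 10 weeks. Fzd4, at chr7:96552876-96558620, was at 3.74, 2.60, 1.40 and 1.73 FPKM in WT mice and at 2.35, 6.96, 4.84 and 4.94 FPKM in cKO mice at 2 weeks. At 10 weeks it was at 0.924, 1.79 and 1.39 FPKM in WT mice and at 6.98, 6.24, 3.95 and 4.92 FPKM in cKO mice, all above WT. The log2(FC) at 10 weeks was 1.95 (SE 0.29, adjusted p = 0.00139), 3.86-fold, and 1.35 with the trend removed (adjusted p = 0.00478). At 2 weeks it was 0.98 (SE 0.39, adjusted p = 0.0669), and 1.28 without cKO replicate 1, which was called (adjusted p = 0.00809), as was the value with the trend removed (1.24, adjusted p = 0.00927). The genotype effect was not shown to differ between the ages (interaction 0.97, 95% confidence interval -0.14 to 2.08). Endothelial markers moved too: 3 of 5 were called higher in cKO at 10 weeks, summing to 12.4 to 16.5 FPKM in WT and to 30.4 to 41.3 FPKM in cKO mice, and 0 of 5 at 2 weeks. Their part in the result was not tested.

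None of the remaining receptors was called in the genotype comparisons as deposited. Fzd9 was at 9.12 to 14.3 FPKM in WT mice at 2 weeks and at 2.71, 19.1, 34.2 and 23.7 FPKM in cKO mice, so that only cKO replicate 1 lay below the WT mice. Without it the log2(FC) was 1.09 (adjusted p = 0.00265), against 0.30 with it. Fzd2, Fzd3, Fzd8 and Fzd10 were lower in every cKO mouse than in every WT mouse at 2 weeks, with log2(FC) of -1.36, -0.63, -1.25 and -1.06, none of them called. With the trend removed, they were at -0.18, -0.71, -0.07 and 0.06.

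The make-up of the receptor pool shifted with age and genotype. In WT mice at 2 weeks Fzd1 held 29.9% ± 0.329 (SD, n = 4) of the summed Frizzled FPKM, and Fzd9 held 6.77% ± 1.29 (SD, n = 4). In WT mice at 10 weeks Fzd9 held 31.1% ± 7.26 (SD, n = 3). In cKO mice its share was 19.5% ± 9.92 (SD, n = 4) at 2 weeks, with cKO replicate 1 at the lowest value of 6.96%, and 24.4% ± 4.45 (SD, n = 4) at 10 weeks. Fzd4 held 0.809% to 2.11% in WT mice of either age and 3.68% to 6.33% in cKO mice of either age, with no overlap. Shares of a library's own total do not depend on its scaling, but they do move with GC content, which is 62.2% for Fzd9 and 47.8% for Fzd4.

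**Figure D3:**
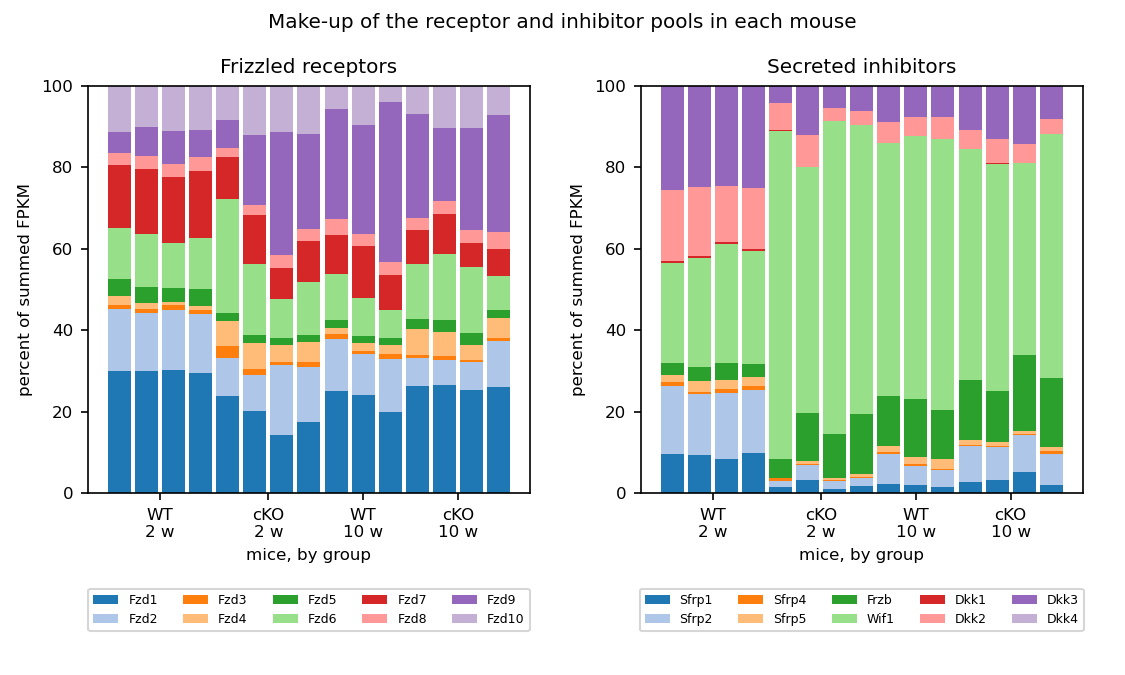
Share of each Frizzled receptor in the summed Frizzled FPKM (left) and of each secreted inhibitor in the summed FPKM of the Sfrp, Frzb, Wif1 and Dkk genes (right), as percent, with one bar per mouse in the order of its replicate number. Wif1 held 24.6% to 29.3% of the inhibitor sum in WT mice at 2 weeks and 47.0% or more in all other mice. Fzd9 took a larger share at 10 weeks than in the 2-week WT mice.

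Lrp6, which with a Frizzled receptor forms the canonical receptor complex, was the most changed gene of the set at 10 weeks. It spans chr6:134396494-134516983. In mice aged 10 weeks it was at 0.859, 1.40 and 0.576 FPKM in WT mice and at 8.88, 9.21, 8.76 and 5.10 FPKM in cKO mice, and at 2 weeks at 3.21, 3.42, 1.91 and 1.93 FPKM in WT mice and at 1.30, 9.37, 6.67 and 6.98 FPKM in cKO mice. Every cKO mouse was above every WT mouse at 10 weeks, and at 2 weeks all but cKO replicate 1 were. The log2(FC) at 10 weeks was 2.99 (SE 0.32, adjusted p = 0.000314), 7.96-fold, and 2.08 with the trend removed (adjusted p = 0.000111). At 2 weeks it was 0.93 (SE 0.57, adjusted p = 0.192) and, without cKO replicate 1, 1.55 (adjusted p = 0.000923), against 1.12 with the trend removed (adjusted p = 0.0483).

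Lrp5, the related co-receptor, lies at chr19:3584825-3686564. It was at 31.8, 32.4, 34.1 and 33.5 FPKM in WT mice and at 0.675, 16.3, 14.2 and 15.2 FPKM in cKO mice at 2 weeks. In the older mice it was at 4.40, 7.63 and 3.81 FPKM in WT mice and at 13.4, 17.4, 17.5 and 9.99 FPKM in cKO mice. The cKO mice were all below WT at 2 weeks and all above at 10 weeks. The 10-week log2(FC) of 1.48 (SE 0.29, adjusted p = 0.00439) was called, also with the trend removed (1.02, adjusted p = 0.00276), but not without WT replicate 1 or 3 or cKO replicate 1, 2 or 3 (1.28 to 1.51, adjusted p 0.0108 to 0.0234), nor with all 4 groups in one fit (adjusted p = 0.161). At 2 weeks the value was -2.19 (SE 0.91, adjusted p = 0.0741) with cKO replicate 1 and -1.11 (adjusted p = 2.35e-05) without it, and -0.67 with the trend removed (adjusted p = 0.233). The interaction was 3.67 (SE 1.07, adjusted p = 0.0132), and it was called without cKO replicate 1 (2.59, adjusted p = 4.13e-05) or without cKO replicate 2 at 2 weeks (4.06, adjusted p = 0.00685).

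Both co-receptor transcripts are long, with a median of 7270 bases for the pair, against 2921 bases for expressed genes. At 10 weeks long transcripts were higher in cKO in general: the median log2(FC) was 0.70 in the top quartile of length over all genes and -0.20 in the bottom quartile. The values with the trend removed, given above for each gene, are relative to genes of like length and GC content.

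Wif1, a secreted inhibitor that binds Wnt ligands directly, is the most abundant inhibitor and the gene with the smallest adjusted p of the set at 2 weeks. It lies at chr10:120471016-120537706. It was at 38.4, 44.4, 52.8 and 45.4 FPKM in WT mice and at 363, 225, 464 and 342 FPKM in cKO mice at 2 weeks. Among 10-week mice it was at 176, 273 and 234 FPKM in WT mice and at 252, 188, 156 and 303 FPKM in cKO mice. The 2-week WT mice were the low group, and the other 3 groups overlapped. The log2(FC) at 2 weeks was 2.90 (SE 0.22, adjusted p = 8.96e-05), 7.49-fold, 2.87 without cKO replicate 1 and 3.0 with the trend removed. The 10-week value was -0.04 (95% confidence interval -0.63 to 0.55). The interaction was -2.95 (SE 0.36, adjusted p = 7.02e-05), and in WT mice Wif1 rose with age by 2.31 (SE 0.26, adjusted p = 1.49e-05).

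Frzb, also called Sfrp3 and abundant in cartilage, followed the same pattern. It lies at chr2:80252127-80287782. At 2 weeks it was at 4.39, 5.86, 7.28 and 4.98 FPKM in WT mice and at 20.6, 43.4, 65.7 and 71.1 FPKM in cKO mice, and at 10 weeks at 34.7, 60.4 and 41.9 FPKM in WT mice and at 65.4, 42.8, 62.0 and 85.6 FPKM in cKO mice. Again only the 2-week WT mice were low. At 2 weeks the log2(FC) was 3.01 (SE 0.38, adjusted p = 0.000852), 8.06-fold, 3.39 without cKO replicate 1 and 3.42 with the trend removed. The 10-week value was 0.48 (SE 0.26, adjusted p = 0.168). The interaction was -2.53 (SE 0.50, adjusted p = 0.00183), and in WT mice Frzb rose with age by 2.98 (SE 0.37, adjusted p = 3.12e-05). In cKO mice neither inhibitor was called with age, Wif1 at -0.63 and Frzb at 0.46.

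Markers of cells that could hold these inhibitors were read beside them. Of 8 cartilage markers tested at 2 weeks, 0 were called higher and 2 lower in cKO, and the 9 listed summed to 288 to 462 FPKM in WT and to 119 to 294 FPKM in cKO mice. Of 8 fibroblast markers 1 was called higher and 3 lower, and their sums were 12838 to 15046 FPKM in WT mice and 5269 to 7239 FPKM in cKO mice. Of 9 skeletal muscle markers 7 were called higher, with sums of 707 to 1076 FPKM in WT mice and 1824 to 3628 FPKM in cKO mice. Of 5 adipocyte markers 1 was called higher, with sums of 221 to 257 FPKM in WT mice and 392.2 to 773 FPKM in cKO mice, and of 8 myeloid markers 2 were, with sums of 205 to 240 FPKM and 636 to 893 FPKM. The summed cartilage and fibroblast markers thus were not higher in cKO at 2 weeks, although the fibroblast marker Dcn was (log2(FC) 1.24, adjusted p = 0.00982). Most of the fibroblast sum in WT mice came from the collagen genes Col1a1, Col1a2 and Col3a1, at 3538 to 4996 FPKM each. Of the 8 fibroblast markers 3 had a positive log2(FC) and 5 a negative one, so the sum does not stand for all of them. The sums for muscle, adipocyte and myeloid markers were higher without overlap. The myeloid sums include S100a8, at 4.57 to 10.4 FPKM in WT and 118 to 234 FPKM in cKO mice. They also include S100a9, at 3.10 to 7.56 FPKM and 87.5 to 192 FPKM. Whether myeloid cells or keratinocytes held the S100a8 and S100a9 RNA cannot be told from whole ear. Of the 8 myeloid markers tested 7 had a positive log2(FC) and 1 a negative one. Itgam was lower in every cKO mouse, at 1.39 to 2.85 FPKM against 3.33 to 3.75 FPKM in WT mice. In the older mice the muscle markers summed to 1069 to 1833 FPKM in WT and to 457 to 814 FPKM in cKO mice, the adipocyte markers to 324 to 428 FPKM and 401 to 779 FPKM. The part of these cells in the result was not tested.

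Sfrp2, a secreted inhibitor of the dermis and dermal papilla, went the other way. It was at 26.2, 24.6, 29.0 and 25.4 FPKM in WT mice and at 7.17, 13.6, 11 and 10.2 FPKM in cKO mice at 2 weeks. The 10-week levels were 20.9, 19.8 and 14.6 FPKM in WT mice and 38.8, 27.1, 30.0 and 38.7 FPKM in cKO mice. The groups were apart at both ages, cKO lower at 2 weeks and higher at 10 weeks. Between the genotypes at 2 weeks the log2(FC) was -1.35 (SE 0.20, adjusted p = 0.00171), -1.18 without cKO replicate 1 and -1.03 with the trend removed, all called. The 10-week value was 0.87 (SE 0.20, adjusted p = 0.00942), under the fold threshold. The interaction was 2.21 (SE 0.29, adjusted p = 0.000116), 1.70 with the trend removed (adjusted p = 3.54e-05), and Sfrp2 was the 1 gene called with age in cKO mice (1.69, SE 0.20, adjusted p = 9.57e-05).

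Sfrp1, a close relative, was at 14.9, 15.6, 15.3 and 15.9 FPKM in WT mice and at 6.81, 12.0, 6.89 and 7.92 FPKM in cKO mice at 2 weeks. At 10 weeks it was at 6.52, 8.28 and 5.68 FPKM in WT mice and at 12.2, 11.1, 17.3 and 10.1 FPKM in cKO mice. It was thus apart at both ages and in the same directions as Sfrp2. Its values of -0.91 (adjusted p = 0.00835) and 0.87 (adjusted p = 0.0159) were not called, the first being called without cKO replicate 2 (-1.09, adjusted p = 0.000506). The 2-week value was -0.82 without cKO replicate 1 and -0.28 with the trend removed, neither called. The interaction was (1.78, SE 0.31, adjusted p = 0.000804), and with the trend removed it was 0.53 (adjusted p = 0.0656). Sfrp4 was at 0.660 to 3.98 FPKM and Sfrp5 at 0.435 to 8.69 FPKM over all mice, with overlapping groups at both ages.

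The Dkk genes act at the co-receptors, except for Dkk3, which does not bind them as Dkk1 does. Dkk3, the highest of the family, was at 39.7, 41.1, 44.0 and 41.0 FPKM in WT mice and at 19.2, 44.9, 32.3 and 29.2 FPKM in cKO mice at 2 weeks, and at 24.4, 31.8 and 25.8 FPKM in WT mice and at 47.8, 43.9, 47.2 and 41.1 FPKM in cKO mice at 10 weeks. The 2-week groups overlapped, and the log2(FC) was -0.46, -0.25 without cKO replicate 1 and 0.06 with the trend removed. They were apart at 10 weeks, where the log2(FC) of 0.72 (SE 0.16, adjusted p = 0.00750) was under the fold threshold. The interaction was 1.19 (SE 0.29, adjusted p = 0.00591), 0.97 without cKO replicate 1, and 0.17 with the trend removed (adjusted p = 0.402), and that call was lost when any 1 of 11 mice was left out, that is, any mouse but cKO replicates 2 and 3 at 2 weeks, WT replicate 2 at 10 weeks and cKO replicate 4 at 10 weeks (log2 0.97 to 1.21). Dkk2 was at 14.6 to 30.0 FPKM over all mice and overlapped between the groups at both ages.

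Dkk1, a strong inhibitor of Lrp5 and Lrp6, was below the filter. At 2 weeks it was at 0.540, 0.577, 0.892 and 0.771 FPKM in WT mice and at 0.0514, 0.0888, 0 and 0.0266 FPKM in cKO mice. In mice aged 10 weeks it was at 0.200, 0.299 and 0.345 FPKM in WT mice and at 0.0929, 0.0547, 0.00493 and 0 FPKM in cKO mice. Every cKO mouse lay below every WT mouse at both ages, with all mice under 1 FPKM. Here too the 10-week WT libraries are those that listed fewer genes at 0. Dkk4, itself a Wnt target, was listed at 0 in 12 mice and at 0.328, 0.0637 and 0.663 FPKM in the WT mice at 10 weeks, the libraries with fewer genes at 0.

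In FPKM as deposited, the secreted inhibitors outweighed the ligands more in cKO than in WT mice at 2 weeks. The summed FPKM of Sfrp, Frzb, Wif1 and Dkk genes was 1.45 to 1.67 times that of the Wnt genes in WT mice at 2 weeks, and 22.5, 4.78, 8.07 and 6.29 times in cKO mice, the first being cKO replicate 1. At 10 weeks the ratio was 2.58, 5.53 and 3.98 in WT mice and 3.15 to 7.04 in cKO mice, with overlap. This ratio moves with GC content, and it was not taken with the trend removed. The ligands had a median transcript GC content of 56.39%, against 49.65% for Wif1 and 50.27% for Frzb. Without Wif1 and Frzb the inhibitors summed to 113 to 120 FPKM in WT mice and to 66.1 to 103 FPKM in cKO mice at 2 weeks. The rise of the inhibitor sum at 2 weeks lay therefore in Wif1 and Frzb alone.

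**Figure D4:**
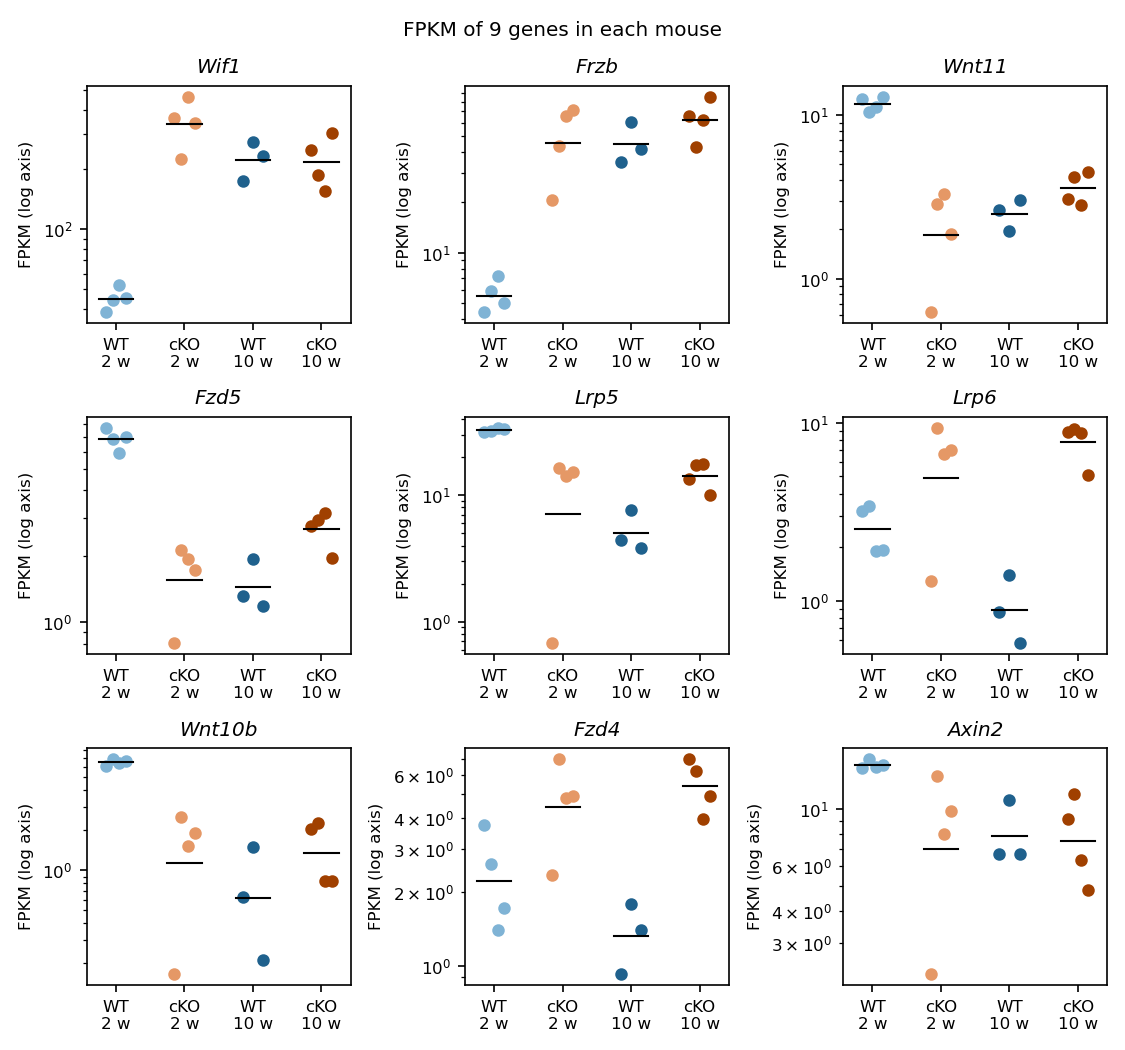
FPKM of 9 genes in each mouse on log axes, with lines at the mean of log2(FPKM + 0.1) in the group. Wif1 and Frzb are low in the 4 WT mice at 2 weeks only, Wnt11, Fzd5 and Wnt10b are high in the same mice only, and Lrp6 and Fzd4 are higher in all cKO mice than in all WT mice at 10 weeks. The lowest point of cKO at 2 weeks for Lrp5 (0.675) and Axin2 (2.27) is replicate 1.

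Ctnnb1, which encodes beta-catenin, a protein of both signalling and cell adhesion, was with Wif1 the most abundant gene of the set. It was at 289, 289, 278 and 297 FPKM in WT mice and at 163, 220, 227 and 224 FPKM in cKO mice at 2 weeks. In the older mice it was at 128, 140 and 89.6 FPKM in WT mice and at 176, 175, 185 and 185 FPKM in cKO mice. The groups were apart at both ages in opposite directions, with log2(FC) of -0.48 (SE 0.14, adjusted p = 0.0262) and 0.62 (SE 0.19, adjusted p = 0.0284), neither called. The 2-week value was -0.37 without cKO replicate 1 and 0.01 with the trend removed. The interaction was 1.10 (SE 0.23, adjusted p = 0.00227), which fell under the fold threshold without cKO replicate 1 at 2 weeks (0.99) or WT replicate 3 at 10 weeks (0.91), and was 0.07 with the trend removed. The RNA level says nothing of the stability of the protein, through which the pathway acts.

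Tcf7, one of the TCF/LEF factors that work with beta-catenin, lies at chr11:52065873-52096681. Its values were 10.4, 9.21, 9.81 and 10.2 FPKM in WT mice and 1.12, 4.34, 2.43 and 3.02 FPKM in cKO mice at 2 weeks. At 10 weeks they were 2.63, 5.64 and 2.23 FPKM in WT mice and 4.98, 5.44, 4.30 and 2.63 FPKM in cKO mice. The groups were apart at 2 weeks and mixed at 10 weeks. The log2(FC) at 2 weeks was -1.97 (SE 0.35, adjusted p = 0.00422), -1.61 without cKO replicate 1 and -1.17 with the trend removed (adjusted p = 0.000336). Without any WT mouse or cKO replicate 3 or 4 the adjusted p was 0.0108 to 0.0166. The interaction was 2.33 (SE 0.54, adjusted p = 0.00404), lost without WT replicate 1 or 3 at 10 weeks (2.08 to 2.19, adjusted p 0.0138 to 0.0152).

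Axin2, a direct target and brake of canonical signalling that is often read as its output, was at 14.5, 15.8, 14.6 and 14.9 FPKM in WT mice and at 2.27, 13.4, 8.0 and 9.83 FPKM in cKO mice at 2 weeks. Among 10-week mice it was at 6.72, 10.9 and 6.69 FPKM in WT mice and at 9.16, 11.4, 6.34 and 4.83 FPKM in cKO mice. All cKO mice were below WT at 2 weeks and the groups were mixed at 10 weeks. At 2 weeks the log2(FC) was -1.08 (95% confidence interval -2.16 to 0.01, adjusted p = 0.0886), -0.55 without cKO replicate 1 (adjusted p = 0.0181) and -0.04 with the trend removed (adjusted p = 0.880). The 10-week value was -0.07 (95% confidence interval -0.77 to 0.63). A change of Axin2 was not shown at either age. For single genes the exact permutation test could not go below p = 0.0286 at 2 weeks or p = 0.0571 at 10 weeks, and genes whose groups did not overlap were at those values.

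**Figure D5:**
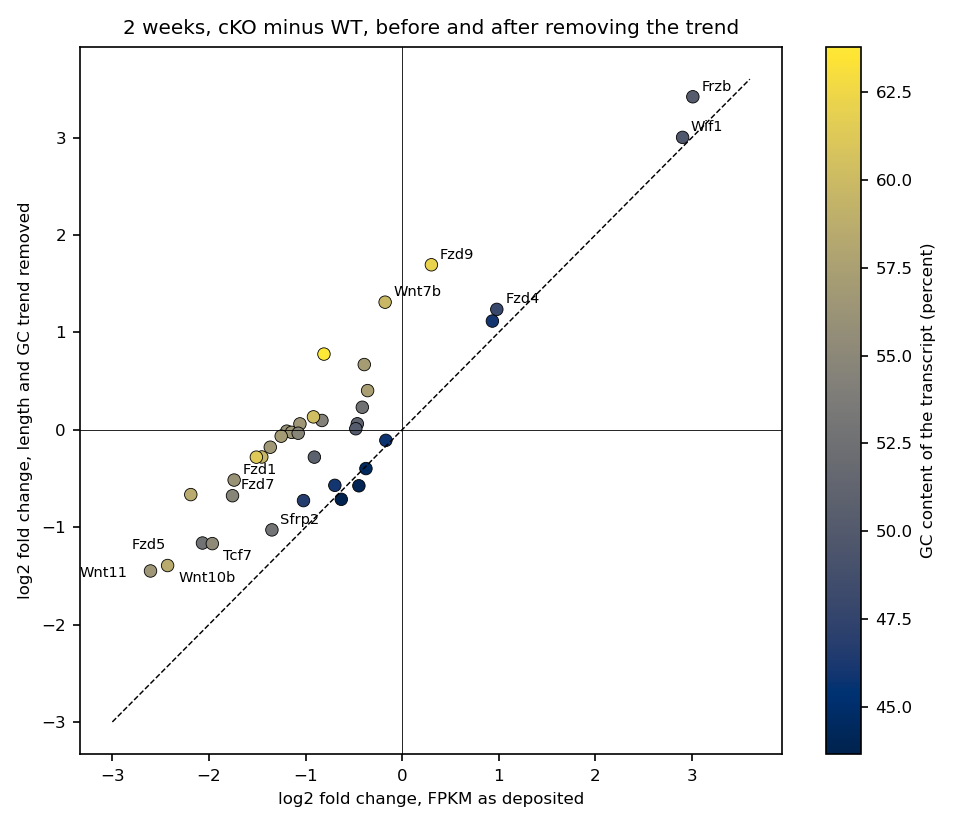
Log2 fold change at 2 weeks for the 37 Wnt genes tested, with FPKM as deposited (horizontal) and with each sample's trend along transcript length and GC content removed (vertical), coloured by GC content. The dashed line marks equal values. GC-rich genes lie well above it, whereas Wif1 and Frzb stay near 3, and Wnt11, Wnt10b, Fzd5, Tcf7 and Sfrp2 stay at or below -1.03.

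The wider pathway was read from a list of 67 further genes. At 2 weeks 63 were tested, of which 0 were called higher and 7 lower, with a median log2(FC) of -1.24, where 7.24% and 7.19% of all genes were called, with a median of -0.21. Without cKO replicate 1, 0 and 25 were called, against 6.89% and 13.0% of all genes, with a median of -0.85. With the trend removed 3 and 8 were, against 7.07% and 5.90%, with a median of -0.30. The 7 were Tle2, Lef1, Lgr5, Nkd2, Csnk1e, Tcf7l2 and Ccnd1. At 10 weeks 59 were tested, of which 14 were called higher and 1 lower, with a median of 0.60, where 12.5% and 2.43% of all genes were called, with a median of 0.31. With the trend removed 8 and 3 were, against 5.93% and 4.19%, with a median of 0.04.

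Lef1, the TCF/LEF factor of the hair matrix, was at 6.08, 5.43, 4.14 and 6.15 FPKM in WT mice and at 0.268, 1.26, 0.845 and 0.699 FPKM in cKO mice at 2 weeks, without overlap. The log2(FC) was -2.81 (SE 0.38, adjusted p = 0.00117), -2.44 without cKO replicate 1 and -2.22 with the trend removed. At 10 weeks it was below the filter, at 0.323 to 0.408 FPKM in WT mice and at 0.599 to 1.21 FPKM in cKO mice.

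Lgr5, an R-spondin receptor of follicle stem cells, was at 10.3 to 13.0 FPKM in WT mice and at 1.30 to 3.76 FPKM in cKO mice at 2 weeks (log2(FC) -2.38, adjusted p = 0.000697, and -2.10 with the trend removed). The co-repressor Tle2 fell by 3.10 and the Dishevelled antagonist Nkd2 by 1.92, both also called with the trend removed. The kinase gene Csnk1e fell by 1.60 and was not called with the trend removed (-0.51). Tcf7l2, a TCF/LEF factor, was called lower at both ages, by -1.37 at 2 weeks (adjusted p = 0.00298) and -1.13 at 10 weeks (adjusted p = 0.00651). It was the 1 gene of this list called lower at 10 weeks. With 1 mouse left out, the number called lower at that age stayed at 1 in only 1 of 7 fits and was otherwise 0. Values of Tcf7l2 with the trend removed are not given here.

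At 10 weeks the rises were largest for Tnks, a tankyrase that marks axin for breakdown (log2(FC) 3.07), Tbl1x, a co-regulator of beta-catenin (3.04), the receptor Ror1 (2.97), the beta-catenin co-activator Bcl9l (2.46), the Dishevelled gene Dvl3 (2.42) and Myc, a target gene of many pathways (2.00). All 6 were called with the trend removed as well. Ror1, which binds Wnt5a, was at 0.254, 0.170 and 0.147 FPKM in WT mice and at 2.96, 2.16, 2.01 and 1.65 FPKM in cKO mice. Myc was at 14.4, 15 and 10.3 FPKM in WT mice and at 60.1, 65.3, 60.6 and 31.7 FPKM in cKO mice. At 2 weeks none of the 6 was called as deposited.

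Several Wnt genes are made in growing hair follicles, and markers of these were read beside the 2-week results. All 12 hair shaft and matrix markers were called lower in cKO, and they summed to 770 to 1229 FPKM in WT mice and to 12.5 to 19.1 FPKM in cKO mice at 2 weeks. At 10 weeks their sums were 12.6 to 17.0 FPKM in WT mice and 9.10 to 24.6 FPKM in cKO mice, with 0 of 4 tested called. Of 9 inner root sheath markers 8 were called lower at 2 weeks, with sums of 2312 to 3418 FPKM in WT mice and 23.3 to 73.5 FPKM in cKO mice. Of the markers of the bulge and outer root sheath 3 of 5 were lower, and of 7 dermal papilla markers 2 were lower and 1 higher. High levels of Wnt11, Wnt10b, Fzd5, Tcf7 and Lef1 in the 2-week WT mice thus went with high hair markers, and their part in the result was not tested.

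For the other marker lists at 2 weeks the counts called higher and lower were 1 and 0 of 7 for the epidermis, 2 and 0 of 8 for myeloid cells, 2 and 1 of 5 for T cells, 1 and 0 of 5 for adipocytes, 0 and 0 of 5 for melanocytes and 1 and 0 of 5 for Schwann cells. At 10 weeks they were 0 and 0 of 7 for the epidermis, 4 and 0 of 9 for myeloid cells, 1 and 0 of 5 for T cells, 2 and 0 of 5 for adipocytes, 1 and 0 of 8 for fibroblasts, 1 and 0 of 8 for cartilage, 0 and 2 of 9 for muscle, and 0 and 0 of 5 for melanocytes and for Schwann cells. Of the follicle lists at 10 weeks 0 and 1 of 3 were called for the inner root sheath, 0 and 1 of 5 for the bulge and outer root sheath and 0 and 0 of 4 for the dermal papilla. Myeloid markers summed to 268 to 451 FPKM in WT mice and to 609 to 1877 FPKM in cKO mice at 10 weeks, where Lrp5, Lrp6 and Fzd4 rose, and their part in that result was not tested. The highest of these sums was that of cKO replicate 3, with S100a8 at 838 FPKM and S100a9 at 425 FPKM. In the other cKO mice of that age both genes were at 5.13 to 18.6 FPKM.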

How the data were processed

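RNA was measured by sequencing in ears of 15 mice. Per the labels and the study's methods, libraries were made with the TruSeq v2 kit, reads were aligned to mm9, and the submitters' processing notes name TopHat2 2.1.0 and Cufflinks. The authors deposited 1 FPKM value per gene, normalized for transcript length and mapped reads. The study's own test needs read counts, which FPKM are not, so log2(FPKM + 0.1) was tested with limma 3.58.1 (R 4.3.3, trend in the prior variance, 2-sided, Benjamini-Hochberg adjustment over all genes tested), by age for the genotype and on all 4 groups for the interaction and age. Only files of the series' own samples were used.

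Genes had at least 1 FPKM in at least 3 samples of a fit, and calls needed an adjusted p below 0.01 and a log2(FC) of at least 1 in either direction. Mouse by mouse, values are given for genes called in a genotype comparison or the interaction, the highest gene of each role, and Lrp5, Lrp6, Porcn, Ctnnb1, Tcf7 and Axin2. Of the further pathway genes, Lef1 and the 6 largest called changes of each age are given. The genes and lists were chosen with earlier results of these data known. Whether replicate mice were littermates is not stated, so p-values measure the spread between these mice only.

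Transcript length and GC content came from GENCODE vM1 on mm9, and a natural spline with 5 degrees of freedom for each was taken out of every sample for the trend-removed fit. Alternatives were leaving out each mouse in turn, all 4 groups in one fit, blocking on the replicate number, quantile normalization, median-of-ratios scaling, a constant prior variance, no filter or a stricter filter, and pseudocounts of 1 and 0.01. The fits were tested on simulated data. No pair of files shared more than 1 identical value above 0.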

Additional observations from a re-analysis of the deposited data

Results flagged for a closer look

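A sample far from the other 3 of its group was seen for 10 gene values, out of 106 groups of 4 mice looked at, and chance gives such a gap in about 1 in 20 groups. In cKO replicate 1 at 2 weeks these were Wnt5b at 0.371 FPKM, Wnt9a at 0.474 FPKM, Fzd10 at 3.20 FPKM, Lrp5 at 0.675 FPKM, Sfrp5 at 0.435 FPKM and Ctnnb1 at 163 FPKM, each the lowest of its group. At 10 weeks they were Wnt6 at 0.971 FPKM in cKO replicate 3, Fzd9 at 18.9 FPKM in cKO replicate 2, and Fzd6 at 8.31 FPKM and Lrp6 at 5.10 FPKM in cKO replicate 4.

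The genotype effect differed between 10 and 2 weeks, by the interaction test on FPKM as deposited, for 15 of 37 genes. Of these 13 were higher and 2 lower, where 18.0% and 6.55% of all genes were called. With the length and GC trend removed, only Wnt11, Fzd5, Sfrp2, Tcf7, Wif1 and Frzb of the 15 were called. In that setting 8.39% of all genes were called higher and 9.93% lower. On the log2 scale the difference was 1.76 for Wnt5a, 3.45 for Wnt10b, 3.10 for Wnt11, 1.80 for Wnt16, 2.38 for Fzd1, 2.90 for Fzd5, 1.68 for Fzd6, 1.80 for Fzd7, 1.78 for Sfrp1, 2.21 for Sfrp2, 1.19 for Dkk3, 1.10 for Ctnnb1 and 2.33 for Tcf7. It was -2.53 for Frzb and -2.95 for Wif1.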

How the results depend on the processing

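At 2 weeks 1 Wnt gene was called lower with the replicate number as a block, with all 4 groups in one fit 12 were, and with the length and GC trend removed 5 were called higher. At 10 weeks 1 gene was called lower without a filter and with quantile normalization. In the interaction 8 were called higher with median-of-ratios scaling and 4 with the trend removed, and 5 were called lower with the trend removed and 4 without a filter. With age in WT mice 4 were called higher without a filter, and 7 higher and 3 lower with the trend removed, and in cKO mice 1 was called lower with the trend removed. Leaving out 1 mouse at a time gave 2 to 5 higher and 3 to 8 lower at 2 weeks, 2 to 6 higher and 0 lower at 10 weeks, 6 to 14 higher and 2 lower in the interaction, 2 to 3 higher and 9 to 20 lower with age in WT mice and 1 higher and 0 to 1 lower in cKO mice. The share of all genes called in either direction ranged widely in the same fits. It was 6.40% to 24.94% at 2 weeks, 5.76% to 20.65% at 10 weeks and 14.14% to 34.82% in the interaction. With age it was 15.92% to 32.49% in WT mice and 2.16% to 5.03% in cKO mice. The causes were not tested.

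The replicate numbers did not pair the mice: deviations of same-numbered WT and cKO mice from their group means correlated at -0.20 to 0.06. With the block Wnt11, Fzd5, Fzd7, Sfrp2 and Tcf7 were not called at 2 weeks (adjusted p 0.0106 to 0.0147) and Fzd6 was called at 10 weeks (1.23). Of 77 values of single genes, 70 kept their direction and their side of the threshold with the block, 68 with median-of-ratios scaling, 63 with quantile normalization, 47 with the trend removed, and 75 to 77 with other pseudocounts, no filter or a constant prior variance.

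Signs turned for genes that were not called as deposited. At 2 weeks quantile normalization gave 0.0192 for Wnt16 and 0.0671 for Porcn, and trend removal 0.0613 for Dkk3, 0.40 for Porcn and 0.0105 for Ctnnb1. At 10 weeks Fzd7 was at -0.28, -0.37 and -0.53 with median-of-ratios scaling, quantile normalization and trend removal, Porcn at -0.17 and -0.27 with the first 2, Tcf7 at -0.0701 with quantile normalization, Wnt5a at -0.12 and Frzb at -0.0233 with trend removal, and Axin2 at 0.14 with the replicate block. In the interaction Porcn was at -0.33 with quantile normalization, and Wnt4 at -1.09, Porcn at -0.23 and Axin2 at -0.52 with trend removal. Leaving out 1 mouse turned Fzd7 (-0.17 to 0.40), Wif1 (-0.22 to 0.12) and Axin2 (-0.27 to 0.17) at 10 weeks, Wnt4 in the interaction (-0.0768 to 0.80), and the median of the Wnt genes with age in cKO mice (-0.0269 to 0.53). The depth of each library was only estimated, so no counting error could be given for genes near 0.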
